A study of Mus musculus with 14 samples.

Results

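The cytosolic ribosomal protein genes are the genes for the proteins of the ribosome that translates nuclear-encoded mRNA. They were taken as every protein-coding gene whose mouse symbol begins with Rpl, Rps or Rplp followed by a digit, without names ending in -ps and without the Rps6k kinases. This left 85 genes of the 52636 in the table, 52 named for the large subunit and 33 for the small subunit. Of 101 protein-coding matches, 10 kinases and 6 -ps names were set aside. Of the 85 genes, 82 reached 1 CPM, a read count scaled to a fixed total per library, in at least 2 libraries and were tested with 16157 genes in all. Rpl10l, Rpl39l and Rpl3l, copies known from testis or striated muscle, did not. The rule also admits Rps19bp1, which encodes a protein that binds Rps19 and is no ribosomal subunit, and it misses subunit genes with other names, of which Rpsa, Fau and Rack1 are given separately.

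Ribosomal proteins are made in near-equal numbers and assembled with ribosomal RNA in the nucleolus. Their mRNAs are abundant, short and carry a run of pyrimidines directly at the cap, the terminal oligopyrimidine (TOP) tract, through which the kinase complex mTORC1 and the binding protein LARP1 set their translation and stability. Low oxygen is known to lower mTORC1 activity, in part through Ddit4. Some ribosomal proteins also bind the p53 inhibitor Mdm2 when ribosome assembly is disturbed.

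The cells were tMEF, transformed mouse embryonic fibroblasts, in which naked mole rat (NMR) TRF1, a protein of the telomere, stood in place of mouse TRF1. By their titles and genotype labels all 7 groups shared this exchange. The GLAD groups carried Glu69Lys, Val70Ala and Ala75Thr in the NMR protein, the TIN groups Ala105Thr, and the double-mutant groups all 4 substitutions. Each mutant had 2 libraries (A and B) from normoxia, which is atmospheric oxygen, and 2 from hypoxia at 1% O2, and NMR TRF1 without these substitutions (wild type) had 2 from normoxia. Wild-type cells in hypoxia are not analysed here.

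Depth inferred from the spacing of the CPM values was 11917017 to 15023543 reads per library, and 3 reads, the limit that a count of 0 allows, came to 0.200 to 0.252 CPM, counting error only. The 11 fibroblast markers listed summed to 7473 to 15510 CPM per library, with Thy1 among them under the limit of 3 reads in every library. Of other cell types, 4 neural markers summed to 139 to 413 CPM, 5 epithelial to 1.55 to 62.4, 4 endothelial to 1.499 to 14.9, 4 myeloid to 24.0 to 68.6, 4 muscle to 1.1 to 6.0 and 3 adipocyte to 12.4 to 60.7. No marker of these lists was at 0 in every library. Whether libraries A and B of a group stem from different cultures is not stated, so the p-values cover library-to-library spread only, and that spread may be technical. A mutant may be 1 line, in which case line and substitution cannot be told apart. The wild-type libraries carry the word Mouse in their library names and their own naming scheme, against a title of NMR TRF1. The labels therefore leave it uncertain whether these 2 libraries hold NMR or mouse TRF1, and a batch of these libraries and the wild-type genotype cannot be told apart. Tests used limma on log2(CPM + 0.5) after trimmed mean of M values (TMM) scaling. A gene was called at a Benjamini-Hochberg adjusted p under 0.05 over all 16157 genes. Errors after ± on log2 differences are standard errors (n = 2 libraries per group). They rest on a spread estimated for each gene over all 14 libraries, not on the spread of the groups compared alone.

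Sequences at the annotated transcription starts are shown for 14 members, because the pyrimidine tract is the feature that these mRNAs are best known to share. They come from RefSeq (GRCm38.p6), whose table matched 65 of the 85 members. Each window holds 15 bases before and 15 bases from the annotated start. The capitals mark a run of at least 5 C or T, counted from its first C within 5 bases of that start. It is read on the strand of the gene only. Any C or T directly before that C is neither marked nor counted, as in Rpl35, Rpl22l1 and Rpl12. Members with long tracts come first, then the paralogues and strongly differing members, and last 3 members with no such run at that place.
Rpl13a (chr7:45128731-45128760, minus strand): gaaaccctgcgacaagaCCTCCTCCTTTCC
Rpl15 (chr14:18270972-18271001, minus strand): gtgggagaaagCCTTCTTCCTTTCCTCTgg
Rpl27a (chr7:109519180-109519209, plus strand): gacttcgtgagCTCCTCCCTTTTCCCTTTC
Rpl35 (chr2:39005117-39005146, minus strand): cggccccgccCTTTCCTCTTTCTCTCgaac
Rps18 (chr17:33955651-33955680, minus strand): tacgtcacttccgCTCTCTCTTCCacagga
Rps6 (chr4:86857353-86857382, minus strand): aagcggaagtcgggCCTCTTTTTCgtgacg
Rps27 (chr3:90213634-90213663, minus strand): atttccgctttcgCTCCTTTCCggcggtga
Rps27l (chr9:66946071-66946100, plus strand): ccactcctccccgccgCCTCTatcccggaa
Rpl22l1 (chr3:28805493-28805522, plus strand): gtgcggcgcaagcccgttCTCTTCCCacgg
Rps2 (chr17:24720048-24720077, plus strand): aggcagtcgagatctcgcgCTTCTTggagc
Rpl12 (chr2:32961697-32961726, plus strand): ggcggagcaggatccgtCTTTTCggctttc
Rpl22 (chr4:152324421-152324450, plus strand): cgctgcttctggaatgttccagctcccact
Rpl4 (chr9:64173372-64173401, plus strand): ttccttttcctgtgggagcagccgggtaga
Rplp0 (chr5:115559452-115559481, plus strand): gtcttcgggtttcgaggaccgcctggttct

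A tract of this kind was present in 30 of the 65 matched members (46.2%), beside 21.9% of 10860 other tested genes. Runs of at least 8 bases were found in 21 members (32.3%) and in 5.3% of the other tested genes. Counted per annotated start rather than per gene, 41.6% of 77 member starts and 18.1% of 13870 other starts held the shorter run. Among the nuclear genes for mitochondrial ribosomal proteins, whose mRNAs are not known as TOP mRNAs, 14 of 69 held it (20.3%). Rpl27a had the longest of these runs, at 20 bases, the last of which lies past the window printed, whereas the runs of Rps27l, Rps2 and Rpl12 were 5, 6 and 6 bases long. A start annotated a few bases away from the one the cells use would hide or create a run. A run that begins farther before the start is counted only from its first C within 5 bases of it. A run with no C there is not counted even where the window holds its letters, as in Rpl4. A window without capitals says only that no such run could be counted from a C within 5 bases of the annotated start.

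Together the 85 genes held 1.98% to 3.48% of all CPM in a library. In normoxia their share was 2.13% and 2.05% in the GLAD libraries A and B, 2.76% and 3.06% in TIN, 2.29% and 2.41% in the double mutant and 2.32% and 2.83% in wild type. In hypoxia it was 2.03% and 1.98% in GLAD, 3.48% and 3.31% in TIN, and 2.32% and 2.75% in the double mutant. The 4 TIN libraries lay highest except for wild-type library B, which fell between the TIN normoxia libraries, and the 4 GLAD libraries lay below all others. In these bulk libraries fewer cells of a kind and less RNA per cell cannot be told apart, and a share of CPM says nothing of the total RNA in a cell. The ratio of large-subunit to small-subunit CPM ranged from 1.60 to 1.78.

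**Figure D1:**
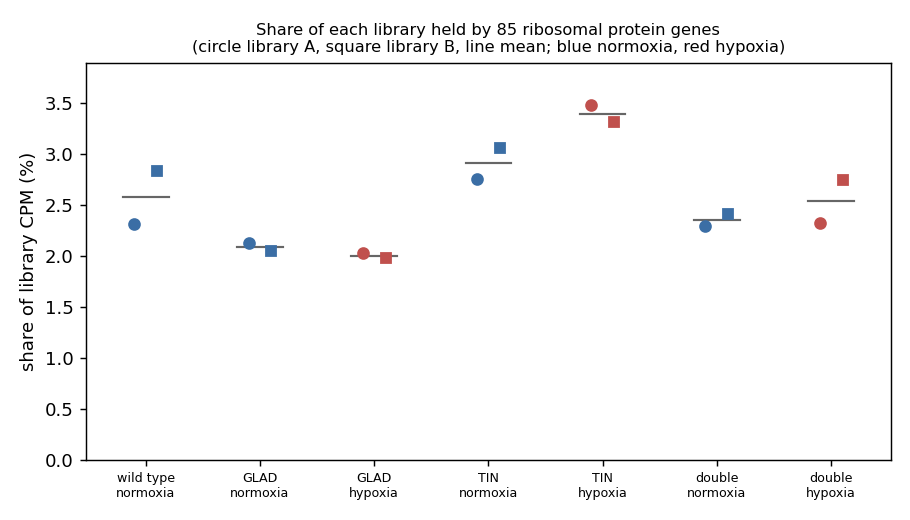
Share of each library's CPM held by the 85 ribosomal protein genes (y axis, %) for the 7 groups (x axis); circles are A libraries, squares B libraries and lines the mean of both. The TIN hypoxia libraries sit highest, at 3.48% and 3.31%, and the GLAD hypoxia libraries lowest, at 2.03% and 1.98%.

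Within the family, levels spread widely. By TMM-scaled CPM averaged over the 14 libraries, Rpl4, a protein of the peptide exit tunnel (ENSMUSG00000032399, GRCm38 chromosome 9, 64173375 to 64178666), was highest at 1001 CPM. Rplp0, the base of the stalk that recruits elongation factors, followed at 845 CPM and Rpl3, which reaches to the catalytic centre, at 715 CPM. Divided by coding length, the order was another. Rpl41, which encodes the shortest subunit from 75 coding bases, led at 5102 CPM per kilobase of coding sequence, then the stalk protein Rplp1 at 1479 and the small-subunit protein Rps12 at 1225. The lowest expressed above 0 were Rpl39l at 0.0459 CPM, Rpl3l at 0.229 CPM and, among tested members, Rps27rt, an intronless copy of Rps27, at 1.05 CPM. How reads that match several near-identical copies were counted is not given in the sources used here. In the same data 283 ribosomal protein pseudogenes held 0.0267% to 0.0501% of the CPM of a library. Levels between members are therefore uncertain, to an extent that was not measured.

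The first comparison asks how the mutant proteins relate to one another at atmospheric oxygen. TIN cells held more mRNA of nearly the whole family than GLAD cells. Of 82 members 73 were higher in TIN, where 27.6% of all tested genes were called higher, and 1 was lower, where 24.1% were. The median member differed by 0.47 in log2, with quartiles of 0.37 and 0.65, beside a median of 0.04 over all tested genes. In either direction 74 were called (51.7%). Both subunits shared in it, with 44 of 49 large-subunit genes at a median of 0.46 and 29 of 33 small-subunit genes at 0.50 called higher. Leaving out any 1 library in turn gave 52 to 72 called members. Fibroblast markers moved in the same comparison, with 2 of 10 tested higher and 7 lower in TIN at a median of −0.80. Dcn, a matrix proteoglycan, stood at 389 and 401 CPM in GLAD and 34.1 and 37.0 in TIN. The neural markers went both ways. Tubb3 stood at 4.24 and 4.32 CPM in GLAD and 19.8 and 20.1 in TIN. Map2 stood at 393 and 382 CPM in GLAD and 232 and 239 in TIN. Rbfox3 and Gfap, also neural, were under 1 CPM in these libraries. The part of these changes in the family's difference was not tested.

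Rps2, which lines the channel where mRNA enters the small subunit (ENSMUSG00000044533, GRCm38 chromosome 17, 24718116 to 24721929), differed most. It stood at 435 and 432 CPM in GLAD, 825 and 837 in TIN, 458 and 492 in the double mutant and 433 and 516 in wild type in normoxia. In hypoxia it stood at 390.2 and 423 CPM in GLAD, 926 and 882 in TIN and 563 and 562 in the double mutant. The 4 TIN libraries lay above all 10 others. TIN exceeded GLAD by 0.94 ± 0.08 (adjusted p = 2.1e-08). Rpl12, at the base of the stalk (ENSMUSG00000038900, GRCm38 chromosome 2, 32961559 to 32965345), read 314 and 308 CPM in GLAD and 534 and 624 in TIN, a difference of 0.89 ± 0.11 (adjusted p = 1.3e-06). Rpl7a, a large-subunit protein, read 373 and 378 CPM in GLAD and 663 and 689 in TIN, a difference of 0.85 ± 0.09 (adjusted p = 2.7e-07). The exception was Rps27l, the paralogue of Rps27 and a known p53 target, which was lower in TIN by 0.43 ± 0.11 (adjusted p = 0.0031). The 8 members without a call were Rps14, Rps20, Rpl21, Rpl9, Rpl36al, Rps27rt, Rpl17 and Rpl24, named here after their values were seen.

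**Figure D2:**
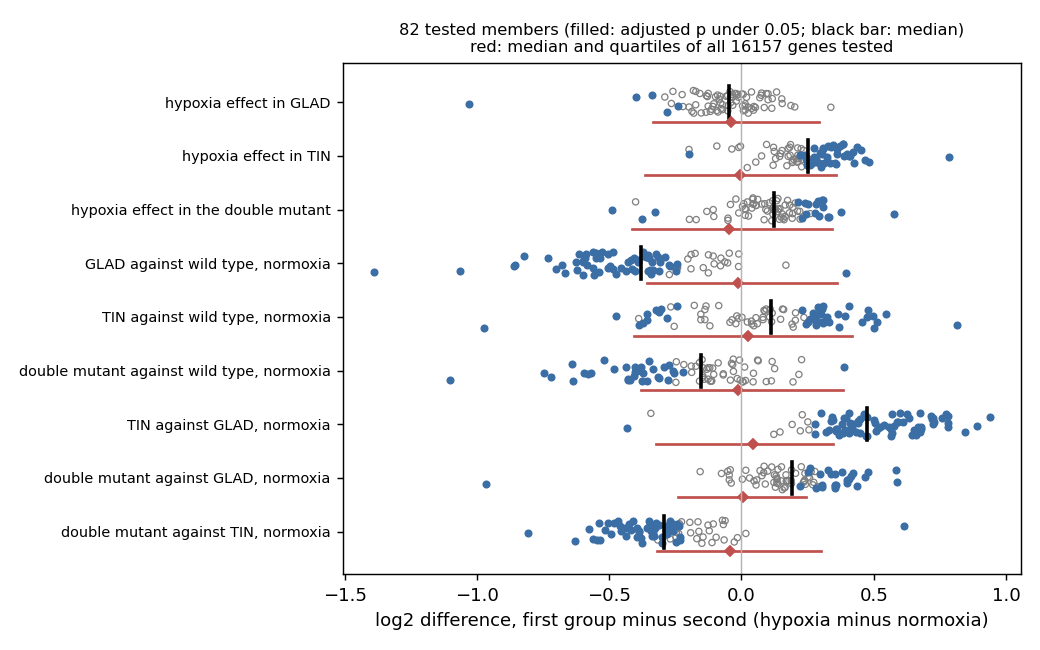
Log2 differences of the 82 tested members (x axis) in 9 comparisons (y axis); filled points had adjusted p under 0.05, black bars are member medians, and red diamonds with lines are the median and quartiles of all 16157 tested genes. The member median is farthest from 0 for TIN against GLAD, at 0.47, while all tested genes had a median of 0.04 there.

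By its median member the double mutant lay between the single mutants. Against GLAD, 25 members were higher (18.4% of all tested genes called higher) and 1 was lower (17.2%), with a median of 0.19 and 26 called in either direction (35.6%). Rpl28, a large-subunit protein, stood at 227 and 254 CPM in GLAD and 350.3 and 371 in the double mutant, higher by 0.59 ± 0.10 (adjusted p = 2.5e-04). Rpl23, which is among the subunits known to bind Mdm2, differed by 0.48 ± 0.10 (adjusted p = 0.0012). Rps27l went the other way and was lower in the double mutant by 0.96 ± 0.11 (adjusted p = 1.9e-06). The count of called members dropped from 26 to 10 without double-mutant normoxia library B, and to 15 and 16 without GLAD normoxia library A and B.

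Against TIN, 53 members were lower in the double mutant (25.8% of all tested genes called lower) and 1, Rps27rt, was higher (22.9%). The median was −0.29, and 54 were called in either direction (48.7%). Rps2 was lower by 0.81 ± 0.08 (adjusted p = 1.7e-07), Rpl12 by 0.63 ± 0.11 (adjusted p = 8.1e-05) and Rps21, a small-subunit protein, by 0.58 ± 0.12 (adjusted p = 4.6e-04). Rpl28 and Rpl23, which were higher than in GLAD, did not pass the test here, at −0.07 and 0.02. Without TIN normoxia library B 18 members were called in place of 54, and without double-mutant normoxia library A 24. These 3 comparisons share their libraries pairwise, so their values are not independent.

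Each mutant was next set against wild-type NMR TRF1 in normoxia. GLAD cells held less of the family, whereas the direction for TIN depended on which wild-type library was used. Whether the double mutant held less depended on it too. Its median was −0.3166 without wild-type library A and −0.0056 without B, where that of all tested genes was 0.0016. For GLAD, 60 members were lower (28.2% of all tested genes called lower) and 1 was higher (27.0%), with a median of −0.38 and 61 called in either direction (55.2%). For TIN, 31 were higher (31.4% of all tested genes) and 11 lower (28.8%), with a median of 0.11, and the members' share of calls higher, 37.8%, was near that of all genes. In either direction 42 were called for TIN (60.2%). For the double mutant, 33 were lower (28.6%) and 1 was higher (28.3%), with a median of −0.15 and 34 called in either direction (56.8%). All-gene medians in these comparisons lay between −0.01 and 0.03. With only the groups compared in the fit, 1 member was higher and 47 lower for GLAD. For TIN 12 were then higher and 2 lower, and for the double mutant 1 and 19.

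The same wild-type libraries enter all 3 comparisons, and they differed from each other. All 82 tested members were higher in wild-type library B than in A, by a median of 0.33 in log2. Outside the family the difference between the 2 libraries ran with transcript length (Spearman's rho of A minus B with length 0.349 over genes, which are not independent replicates). Without wild-type library B 39 members were called for GLAD in place of 61, and without wild-type library A 64 for the double mutant in place of 34. For TIN, 11 members were higher and 21 lower without wild-type library A, at a median of −0.03 in place of 0.11, so that the direction turned. For the double mutant, 10 were higher and 15 lower without wild-type library B, at a median of −0.01 in place of −0.15. The count for the double mutant was 16 without its own library A. The count for TIN was 27 without TIN normoxia library A and 24 without B, where 12 were higher and 12 lower, in place of 42.

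Rpl22l1, the paralogue that takes the place of Rpl22 in some ribosomes (ENSMUSG00000039221, GRCm38 chromosome 3, 28805436 to 28807424), was the member farthest below wild type in each mutant. Its levels were 46.3 and 53.7 CPM in wild type, 22.3 and 15.8 in GLAD, 22.9 and 27.6 in TIN and 22.8 and 23.2 in the double mutant in normoxia. In hypoxia they were 28.0 and 20.2 CPM in GLAD, 29.5 and 27.3 in TIN and 21.9 and 27.7 in the double mutant. Both wild-type libraries lay above the 12 mutant libraries. It was lower in GLAD by 1.39 ± 0.16 (adjusted p = 1.5e-06), in TIN by 0.97 ± 0.16 (adjusted p = 5.5e-05) and in the double mutant by 1.10 ± 0.16 (adjusted p = 1.9e-05).

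Other members stood below wild type in more than 1 mutant. Rpl27, a large-subunit protein, read 148 and 190.5 CPM in wild type, 92.9 and 91.2 in GLAD, 121 and 148 in TIN and 99.1 and 100.2 in the double mutant, lower in GLAD by 0.86 ± 0.11 (adjusted p = 6.0e-06) and in the double mutant by 0.75 ± 0.11 (adjusted p = 2.5e-05). Rps27a, made as a fusion with ubiquitin, was lower in GLAD by 0.86 ± 0.12 (adjusted p = 1.6e-05), in TIN by 0.39 ± 0.12 (adjusted p = 0.012) and in the double mutant by 0.72 ± 0.12 (adjusted p = 8.7e-05). Rpl37a was lower in GLAD by 1.06 ± 0.10 (adjusted p = 1.5e-07). Rpl36al, the autosomal paralogue of Rpl36a, was lower in TIN by 0.47 ± 0.12 (adjusted p = 0.0017).

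With both wild-type libraries, members above wild type were found mainly in TIN. Rps2 exceeded wild type there by 0.81 ± 0.08 (adjusted p = 9.6e-08), Rpl27a by 0.54 ± 0.10 (adjusted p = 1.1e-04) and Rplp0 by 0.51 ± 0.08 (adjusted p = 3.1e-05). In GLAD, Rps27l was the member called higher, by 0.40 ± 0.11 (adjusted p = 0.0055). In the double mutant it was Rpl7l1, a paralogue of Rpl7 known from ribosome assembly, at 0.39 ± 0.07 (adjusted p = 2.3e-04).

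Low oxygen was compared with atmospheric oxygen within each mutant. In TIN cells 43 of 82 members rose (25.6% of all tested genes called higher) and 1 fell (28.3%). The median was 0.25 with quartiles of 0.18 and 0.34, beside −0.01 over all tested genes, and in either direction 44 members were called (53.9% of all tested genes). Of large-subunit genes 26 of 49 rose and of small-subunit genes 17 of 33. The count of called members was 9 without TIN normoxia library A and 10 without TIN hypoxia library A, in place of 44. With the trend of transcript length and GC content removed it was 24.

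Rps27, a zinc-binding small-subunit protein (ENSMUSG00000090733, GRCm38 chromosome 3, 90212522 to 90213651), stood at 166 and 184 CPM in TIN normoxia and 250.2 and 239.5 in TIN hypoxia, and rose by 0.48 ± 0.11 (adjusted p = 9.9e-04). In GLAD it read 145 and 144 CPM in normoxia and 147 and 142 in hypoxia. The double mutant had 151 and 175 CPM in normoxia and 168 and 211 in hypoxia, and wild type 153 and 189.6. Both TIN hypoxia libraries lay above the 12 others. Rpl38, known for its part in translating a subset of developmental mRNAs, stood at 87.9 and 98.4 CPM in TIN normoxia and 132 and 123 in hypoxia and rose by 0.45 ± 0.11 (adjusted p = 0.002). Rpl7l1 was the member that fell, from 135 and 139 CPM to 116 and 123, by 0.20 ± 0.07 (adjusted p = 0.03).

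In double-mutant cells 16 members rose (25.8% of all tested genes called higher) and 3 fell (30.2%), so that the share called, 19.5% higher and 3.7% lower, was below that of all genes in both directions. In either direction 19 members were called (56.1%). The median was 0.12, beside −0.05. Rpl22, an RNA-binding large-subunit protein (ENSMUSG00000028936, GRCm38 chromosome 4, 152325742 to 152334071), rose most. Its levels were 173 and 192 CPM in double-mutant normoxia and 253 and 293 in hypoxia. In TIN they were 200.1 and 229.8 CPM in normoxia and 304 and 289 in hypoxia. GLAD had 165 and 169.5 CPM in normoxia and 190.3 and 182 in hypoxia, and wild type 188 and 217. The 4 hypoxia libraries of TIN and the double mutant lay above the other 10. Rpl22 rose by 0.58 ± 0.09 (adjusted p = 2.9e-05) in the double mutant and by 0.47 ± 0.09 (adjusted p = 3.0e-04) in TIN.

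Rpl4 rose in the double mutant by 0.38 ± 0.08 (adjusted p = 7.6e-04) and Rpl7a by 0.33 ± 0.09 (adjusted p = 0.004). The 3 that fell there were Rps27l by 0.49 ± 0.11 (adjusted p = 0.001), Rpl7l1 by 0.38 ± 0.07 (adjusted p = 3.0e-04) and Rpl41 by 0.33 ± 0.11 (adjusted p = 0.02). Rpl41 read 329.8 and 346 CPM in double-mutant normoxia and 243 and 298 in hypoxia. In TIN it read 419 and 501 CPM in normoxia and 561 and 546 in hypoxia, above all double-mutant libraries. Of the 16 members that rose in the double mutant 11 also rose in TIN, which is 68.8% of the 16 and 25.6% of the 43, beside 50.3% and 50.8% for all tested genes. These 2 hypoxia effects share no library. Without double-mutant hypoxia library B 7 members were called in place of 19, 2 higher and 5 lower at a median of 0.03. Without double-mutant normoxia library A 6 were, 3 higher and 3 lower at a median of 0.06. After removal of the length and GC trend 37 were called, and with coding length in that trend 57 were higher and 3 lower.

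In GLAD cells few members passed the test of hypoxia with all 7 groups in the fit. No member was called higher (22.1% of all tested genes were) and 5 were called lower (26.0%) by limma, with 1 higher and 6 lower at an unadjusted p under 0.05, so that 5 were called in either direction where 48.1% of all genes were. The median was −0.05, beside −0.04 over all tested genes. Rps27l fell most (ENSMUSG00000036781, GRCm38 chromosome 9, 66946086 to 66949516). Its levels were 95.5 and 85.3 CPM in GLAD normoxia and 46.5 and 41.4 in hypoxia, in TIN 60.1 and 74.3 in normoxia and 57.7 and 58.6 in hypoxia. The double-mutant libraries had 47.2 and 44.9 CPM in normoxia and 29.4 and 36.3 in hypoxia, and the wild type had 67.3 and 69.7. GLAD normoxia lay above every other group and double-mutant hypoxia below. Rps27l fell by 1.03 ± 0.11 (adjusted p = 5.4e-07) in GLAD.

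Rpl27 fell in GLAD hypoxia by 0.40 ± 0.11 (adjusted p = 0.0078) and Rps21 by 0.34 ± 0.12 (adjusted p = 0.023). The other 2 were Rpl7l1, lower by 0.28, and Rpl36, lower by 0.24. Without GLAD normoxia library B 3 members were called, and without GLAD hypoxia library B 2. With only the GLAD groups in the fit 4 members were called higher and 15 lower. With median-of-ratios scaling 1 member was called higher and 5 lower, with the length and GC trend removed 7 and 6, and with coding length in that trend 14 and 4.

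**Figure D3:**
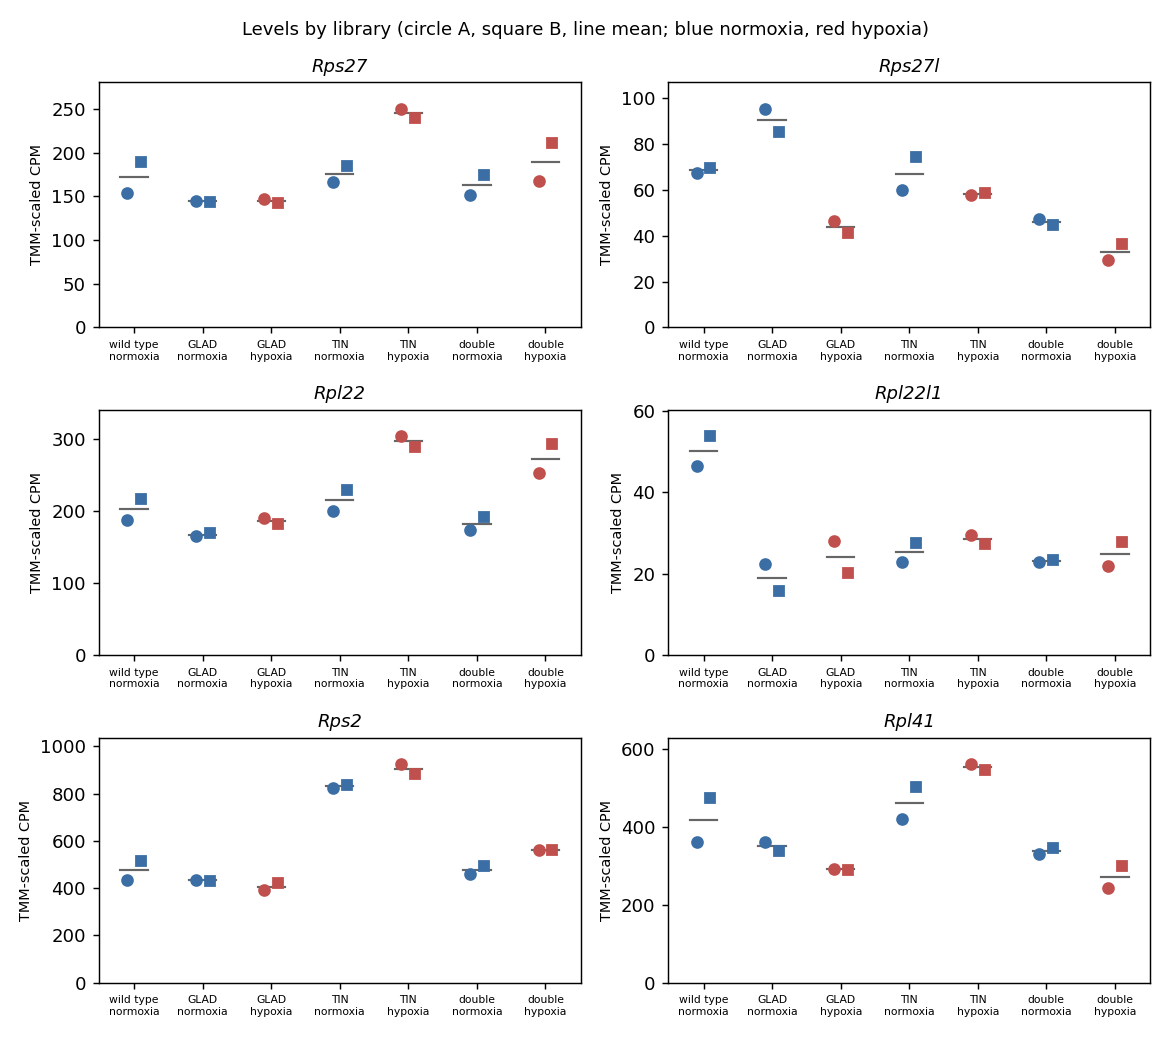
Levels of 6 members in TMM-scaled CPM (y axes, from 0) by group (x axes); circles are A libraries, squares B libraries, lines means, blue normoxia and red hypoxia. Rps27l is highest in GLAD normoxia, at 95.5 and 85.3 CPM, and Rps2 is highest in TIN, at 825 to 926 CPM in 4 libraries.

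Whether the response to low oxygen differed between mutants was tested as a difference of differences. Set against GLAD, the hypoxia effect in TIN was more positive for 23 members (16.4% of all tested genes called higher) and more negative for none (17.5%) by limma, with 43 and 0 at an unadjusted p under 0.05. The median difference was 0.31 beside 0.03. Among members with a mean of at least 5 CPM it was 0.83 ± 0.16 (adjusted p = 6.3e-04) for Rps27l, 0.60 ± 0.16 (adjusted p = 0.0063) for Rpl38 and 0.59 ± 0.13 (adjusted p = 0.0022) for Rpl36. Rps27l did not pass the test of the hypoxia effect in TIN itself, at −0.20. This count moved with single libraries and ranged from 3, without TIN normoxia library A, to 28. It was 5 without TIN hypoxia library A and 13 without B, 6 without GLAD hypoxia library B and 15 without A, and 8 and 10 without GLAD normoxia library A and B.

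For the double mutant against GLAD, 3 members had a more positive effect (6.91% of all tested genes) and none a more negative one (7.63%) by limma, with 7 and 0 at an unadjusted p under 0.05. They were Rps27l at 0.54 ± 0.16 (adjusted p = 0.025), Rpl36 at 0.52 ± 0.13 (adjusted p = 0.012) and Rpl22 at 0.42 ± 0.13 (adjusted p = 0.033). The number was 0 without double-mutant normoxia library A or double-mutant hypoxia library B, each with 4 at an unadjusted p under 0.05. It was 1 without GLAD normoxia library A, GLAD normoxia library B or GLAD hypoxia library B.

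For the double mutant against TIN, 2 members had a more positive effect (21.4% of all tested genes) and 4 a more negative one (21.4%), a share far under that of all genes. Rpl7a differed by 0.37 ± 0.13 (adjusted p = 0.025) and Rpl4 by 0.32 ± 0.12 (adjusted p = 0.033). The 4 were Rpl41 at −0.60 ± 0.16 (adjusted p = 0.0058), Rpl38 at −0.49 ± 0.16 (adjusted p = 0.016), Rps24 at −0.42 ± 0.15 (adjusted p = 0.036) and Rps27rt. The number was 18 without double-mutant hypoxia library B, 1 without TIN hypoxia library A, and 3 each without TIN normoxia library A, TIN hypoxia library B or double-mutant hypoxia library A. The 3 tests share libraries pairwise.

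Ribosomal protein mRNAs are short, so their differences were set beside those of other genes by transcript length. Whether length has a part in the family's differences was not tested beyond these values. Their annotated transcripts ran from 345 to 5130 bases with a median of 775, beside 2542 for tested genes, and 63 of 85 were under 1000 bases. Rps15a and Rps20 carry long annotated transcripts, of 5130 and 3706 bases. Outside the family, the log2 difference ran with length and with GC content most in comparisons that involve TIN hypoxia. Spearman's rho with length over 16035 non-member genes was −0.205 for the hypoxia effect in TIN, −0.316 for that effect minus the effect in GLAD, and 0.25 for the double mutant minus TIN. With GC content it was 0.217, 0.263 and −0.196 in these 3. With length it was 0.095 for hypoxia in GLAD, 0.057 in the double mutant, −0.068 for TIN against GLAD and 0.189 for GLAD against wild type.

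Non-member genes with transcripts under 600 bases had a median hypoxia effect of 0.13 in TIN, those of 600 to 1000 bases 0.10 and those over 4000 bases −0.20. The 62 tested members under 1000 bases had 0.25. For TIN against GLAD the medians by length of non-members were 0.13, 0.09, 0.06, 0.02 and 0.01 from short to long, and that of members under 1000 bases was 0.46. The short members thus had higher medians than short genes outside the family, coding or not, in both comparisons.

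**Figure D4:**
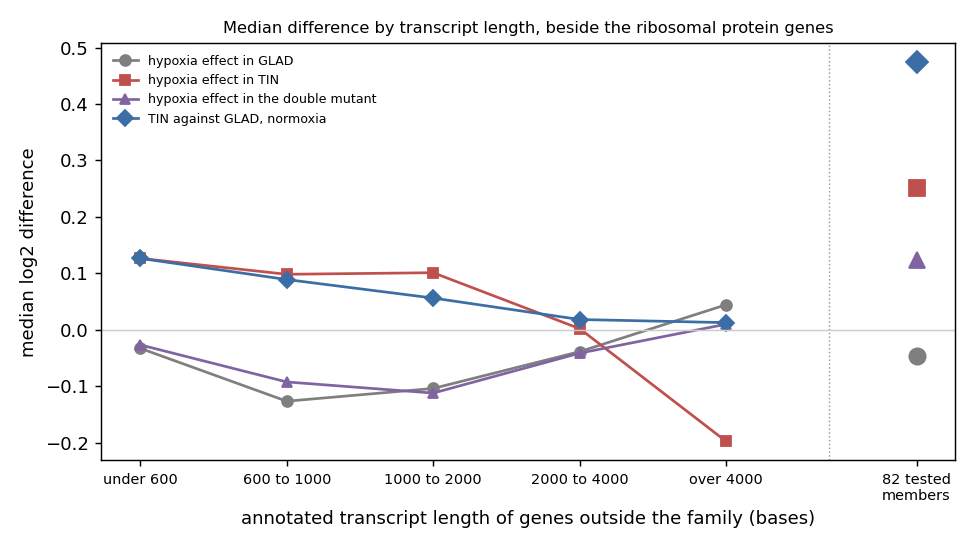
Median log2 difference (y axis) of non-member genes in 5 classes of annotated transcript length (x axis, bases) for 4 comparisons, with the median of the 82 tested members at the right in the same symbol. For the hypoxia effect in TIN the classes run from 0.13 to −0.20, and the members stand at 0.25.

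The trend with length and GC content was then fitted on non-member genes in each library and removed from all genes. For TIN against GLAD 78 members were then higher (37.7% of all tested genes called higher) and 1 lower (21.4%), with a median of 0.51 while that of all genes moved to 0.13. For the hypoxia effect in TIN 19 were higher (25.0%) and 5 lower (32.1%), with a median of 0.10 and 24 called in either direction (57.1%). The members' share of calls, 23.2% higher and 6.1% lower, was then no greater than that of all genes in either direction. In the double mutant 34 were higher (27.2%) and 3 lower (33.3%), with a median of 0.16, and in GLAD 7 were higher (22.1%) and 6 lower (30.9%), with a median of −0.02.

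The differences of hypoxia effects moved as well. TIN minus GLAD had 14 members higher (15.7%) and 2 lower (16.0%) with a median of 0.12, double minus GLAD 9 higher (11.1%) and 0 lower (10.2%), and double minus TIN 12 higher (22.8%) and 4 lower (21.2%) at a median of 0.06 in place of −0.15. With coding length in place of transcript length, an alternative chosen after seeing the data, TIN minus GLAD had 1 member higher and 5 lower, 6 in either direction (33.4%), at a median of −0.02, and double minus TIN 31 higher (25.5%) and 1 lower (22.1%) at a median of 0.19. The hypoxia effect in TIN had 16 higher (25.5%) and 10 lower (34.5%) with coding length. Its median was 0.05, beside −0.05 over all genes. The hypoxia effect in the double mutant had 57 higher (29.8%) and 3 lower (35.9%) with coding length, at a median of 0.24 beside −0.06. In GLAD 14 were higher (24.4%) and 4 lower (33.3%), at 0.08 beside −0.06. With coding length the rise in hypoxia was thus larger in the double mutant than in TIN, by count and by median. Against wild type, with transcript length in the trend, GLAD had 2 higher (25.2%) and 58 lower (33.8%), 60 in either direction (59.0%). The double mutant had 11 higher (27.1%) and 28 lower (33.3%). TIN had 47 higher (36.4%) and 11 lower (27.7%), with a median of 0.24.

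Single members followed these moves to different degrees. Rps27 kept a rise in TIN hypoxia of 0.36 ± 0.08 (adjusted p = 0.0013) and Rpl22 of 0.36 ± 0.07 (adjusted p = 4.4e-04). Rps2 turned to −0.14 ± 0.06 (adjusted p = 0.048) in TIN hypoxia, while its difference of TIN from GLAD stayed at 0.98 ± 0.06 (adjusted p = 7.0e-11). Rps15a, with its long annotated transcript, went from 0.25 to 0.51 ± 0.13 (adjusted p = 0.0022).

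**Figure D5:**
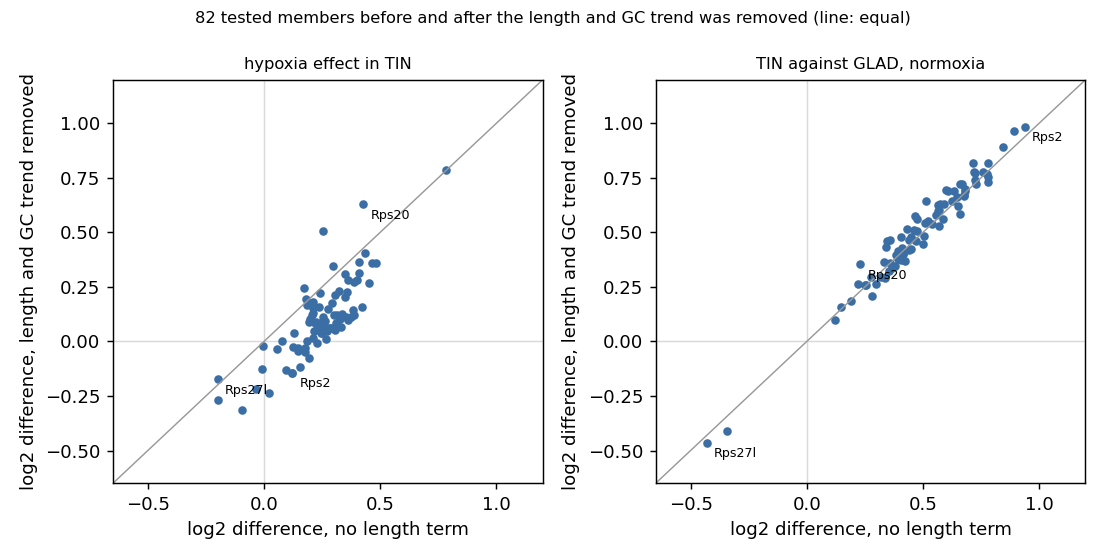
Log2 difference of each of the 82 tested members without (x axis) and with (y axis) removal of the length and GC trend, for the hypoxia effect in TIN and for TIN against GLAD; the diagonal marks equal values. In TIN hypoxia the median goes from 0.25 to 0.10, and for TIN against GLAD from 0.47 to 0.51.

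By role, the 3 stalk proteins were all higher in TIN than in GLAD. Rplp0 was higher in TIN than in GLAD by 0.34 ± 0.08 (adjusted p = 0.0018), Rplp1 by 0.36 ± 0.09 (adjusted p = 0.003) and Rplp2 by 0.72 ± 0.11 (adjusted p = 3.3e-05). In TIN hypoxia they rose by 0.24, 0.31 and 0.38, each called, with adjusted p of 0.018, 0.0079 and 0.0081. With the coding-length and GC trend removed Rplp1 stood at −0.083 there. Rplp2 read 287 and 311 CPM in TIN normoxia, 405 and 376 in TIN hypoxia, 171 and 191 in GLAD normoxia and 175 and 174 in GLAD hypoxia. In GLAD hypoxia none of the 3 passed the test, at 0.01, −0.08 and −0.05.

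Rpl5 and Rpl11, which with ribosomal RNA bind Mdm2, were higher in TIN than in GLAD by 0.35 ± 0.12 (adjusted p = 0.018) and 0.57 ± 0.10 (adjusted p = 1.2e-04). Rpl11 stood at 259.9 and 260.1 CPM in GLAD, 367 and 406 in TIN and 253 and 279 in the double mutant in normoxia. Rpl5 rose in TIN hypoxia by 0.30 ± 0.12 (adjusted p = 0.037), and Rpl11 did not pass the test there, at 0.15. Of 4 p53 genes listed 1 was higher (27.6% of all tested genes) and 3 were lower (24.1%) in TIN than in GLAD. Trp53, which encodes p53, was higher by 0.44 ± 0.08 (adjusted p = 1.2e-04). Cdkn1a, the cell-cycle inhibitor, stood at 217 and 214 CPM in GLAD and 32.4 and 27.4 in TIN, and Mdm2 at 219.8 and 214 CPM in GLAD and 113 and 106 in TIN.

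Rps6, the subunit phosphorylated by the Rps6k kinases, was higher in TIN than in GLAD by 0.47 ± 0.10 (adjusted p = 6.5e-04). It rose in TIN hypoxia by 0.27 ± 0.10 (adjusted p = 0.028) and in double-mutant hypoxia by 0.25 ± 0.10 (adjusted p = 0.042). Rps19, the gene most often mutated in Diamond-Blackfan anaemia, read 349 and 404 CPM in TIN normoxia and 512 and 496 in TIN hypoxia, a rise of 0.42 ± 0.10 (adjusted p = 0.0016). Rpl13a, which is also known to silence inflammatory mRNAs once released from the ribosome, rose in TIN hypoxia by 0.34 ± 0.11 (adjusted p = 0.012). In GLAD hypoxia these 3 did not pass the test, at 0.10, −0.08 and −0.04.

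Paralogue pairs could be compared for 4 of the 8 pairs listed. Rpl3l, Rpl10l and Rpl39l were at or near the floor of 3 reads, with Rpl10l listed at 0 in every library, so no fold was formed. Rps4l is not a member by the rule. Rpl22 rose in 2 of 3 hypoxia comparisons, and Rpl22l1 passed the test in none, at 0.34, 0.17 and 0.10. Rpl7 did not pass the test of hypoxia in any mutant, at −0.02 to 0.18, whereas Rpl7l1 fell in all 3. Rps27 rose in TIN hypoxia, whereas Rps27l fell in GLAD and double-mutant hypoxia. Rpl36a was higher in TIN than in GLAD by 0.57 ± 0.11 (adjusted p = 3.9e-04), and Rpl36al did not pass, at 0.12. Differences within a pair were not tested as such.

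Among canonical paralogue partners, Rpl3 rose in double-mutant hypoxia by 0.31 ± 0.09 (adjusted p = 0.005). Rpl10, the last large-subunit protein to join, rose in TIN by 0.22 ± 0.09 (adjusted p = 0.038) and in the double mutant by 0.24 ± 0.09 (adjusted p = 0.024). Rpl39, in the wall of the exit tunnel, and Rps4x, encoded on the X chromosome, passed in no hypoxia comparison, at 0.21 and 0.13 in TIN. Both were higher in TIN than in GLAD in normoxia, by 0.42 and 0.59.

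How the members vary together was described from the 7 group means, with no test. TIN hypoxia was the highest group for 66 of 82 members, beside 17.4% of all tested genes. GLAD hypoxia was lowest for 49 and GLAD normoxia for 28, beside 12.5% and 10.7%. The spread of a member over the 7 groups had a median SD of 0.305 in log2, beside 0.386 for all tested genes. Once the family median of each group was subtracted it was 0.141, with a smaller SD for 79 of 82. That median comes from the same members, so part of the drop is built in, and no other gene set is given beside it. Rps15a, Rpl32, Rps29 and Rpl10a lay closest to the family median, with an SD of 0.036, 0.055, 0.057 and 0.064. Over 0.3 were Rps27l at 0.548, Rpl22l1 at 0.388 and Rps27rt at 0.308. Relative to the family median and to its own mean, Rps27l stood at 1.02 in log2 in GLAD normoxia and at −0.74 in double-mutant hypoxia.

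Libraries of 1 group could also differ for the family as a whole. In TIN normoxia 80 of 82 members were higher in library B than in A, by a median of 0.14. In double-mutant hypoxia 80 were, by 0.23, and in double-mutant normoxia 77, by 0.10. In TIN hypoxia only 5 were higher in B, with a median of A minus B of 0.06. In the GLAD groups the difference between libraries had a median of 0.03 and 0.02. The members varied together between libraries of 1 group, so called members are not independent results.

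The members were also split by the tract at the start. In TIN hypoxia the median was 0.25 for 30 members with a tract and 0.23 for 32 without, and for TIN against GLAD 0.57 and 0.45. In GLAD against wild type it was −0.40 and −0.36. Whether these pairs of medians differ was not tested.

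Of the subunit genes outside the naming rule, Rpsa, Fau and Rack1 were each called higher in TIN than in GLAD and rose in TIN hypoxia, by 0.27, 0.74 and 0.22. Fau, which encodes a small-subunit protein fused to a ubiquitin-like one, read 252 and 245 CPM in GLAD normoxia, 363 and 365 in TIN and 266 and 290.0 in the double mutant. In hypoxia it read 329 and 346 CPM in GLAD, 618 and 601 in TIN and 474 and 543 in the double mutant. It rose in each mutant, by 0.44 ± 0.11 (adjusted p = 0.0024) in GLAD, 0.74 ± 0.11 (adjusted p = 1.3e-05) in TIN and 0.87 ± 0.11 (adjusted p = 1.7e-06) in the double mutant. Of the ribosomal protein pseudogenes 42 passed the filter, with 12 higher in TIN hypoxia (28.6%, beside 25.6% of all tested genes) and 13 higher in TIN against GLAD (31.0%, beside 27.6%), both near the share of all genes.

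Other parts of the translation apparatus were counted in the same comparisons, in which 27.6% of all tested genes were higher and 24.1% lower in TIN than in GLAD, and 25.6% rose and 28.3% fell in TIN hypoxia. Of 42 ribosome assembly factors 38 were higher in TIN than in GLAD and 1 was lower, at a median of 0.71, led by nucleolin (Ncl) at 1.35 ± 0.09 (adjusted p = 3.0e-10) and Nop56 at 1.32 ± 0.09 (adjusted p = 1.3e-09). In TIN hypoxia 2 of them rose and 26 fell, at a median of −0.30, with Wdr12 lower by 1.32 ± 0.09 (adjusted p = 1.6e-09), opposite in sign to the median ribosomal protein gene. Of 20 translation factors with TOP mRNAs 16 were higher in TIN than in GLAD, and in TIN hypoxia 5 rose and 5 fell, which is near the share of all genes. Eef1g was higher in TIN than in GLAD by 0.78 ± 0.09 (adjusted p = 8.6e-07). Of 14 RNA polymerase I genes, which serve ribosomal RNA synthesis, 8 were higher in TIN than in GLAD and 1 was lower.

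Mitochondrial ribosomal proteins and proteasome subunits, 2 other families of short mRNAs, are given for comparison, against the same shares of all genes, and 22.1% higher and 26.0% lower in GLAD hypoxia. Of 78 mitochondrial ribosomal protein genes 7 rose and 17 fell in TIN hypoxia, and 1 rose and 42 fell in GLAD hypoxia at a median of −0.31. Of 38 proteasome subunits 5 rose and 16 fell in TIN hypoxia, and 31 fell in GLAD hypoxia at a median of −0.45. In TIN against GLAD both moved in the same direction as the cytosolic family, with 45 of 78 and 22 of 38 higher (27.6% of all tested genes) and medians of 0.28 and 0.30. Their hypoxia effect in TIN minus that in GLAD was also more positive, for 18 of 78 at a median of 0.29 and 19 of 38 at 0.36, beside 23 of 82 members at 0.31 and 16.4% of all tested genes. Against wild type, with the length and GC trend removed, 50 of 78 and 31 of 38 were lower in GLAD, at medians of −0.37 and −0.35. The cytosolic family had 58 of 82 lower at −0.31, beside 33.8% of all tested genes. In the double mutant the medians were −0.38 and −0.49 beside −0.11, and in TIN 0.005 and −0.004 beside 0.24. Of the mTORC1 pathway list, 4 of 14 rose (25.6% of all tested genes) and 8 fell (28.3%) in TIN hypoxia. Its inhibitor Ddit4 stood at 25.0 and 23.9 CPM in TIN normoxia and 343 and 352 in hypoxia, with a rise of 3.80 ± 0.08 (adjusted p = 6.9e-17). In GLAD it rose by 1.63 ± 0.08 (adjusted p = 6.3e-12). The double mutant had 55.5 and 59.3 CPM of Ddit4 in normoxia and 358 and 318 in hypoxia, a level near that of TIN hypoxia.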

How the data were processed

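RNA sequencing libraries were made from total RNA of tMEF cells, 2 libraries (A and B) in each of 7 groups. The values deposited by the authors are CPM per gene (reads scaled to a fixed total per library), 1 column per library. The submitters' processing notes name STAR, HTSeq and the mouse build GRCm38.p4 (mm10), without versions. Read handling beyond this is not given in the sources used here.

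The members and gene lists were chosen with earlier results of these data known. Libraries were rescaled with TMM factors, and a gene was tested if 2 or more libraries reached 1 CPM. Tests ran on log2(CPM + 0.5) with limma 3.58.1 (trend) in R 4.3.3 over 7 group means, with Benjamini-Hochberg adjustment per comparison. A fold change on this scale understates that of low genes. The script was tested on simulated data. Depth was inferred from the steps of low CPM values. Gene models came from GENCODE M21 (GRCm38). Length and GC trends were fitted by splines on genes outside the family in each library.

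Named members were the 3 called members with the largest rise and the 3 with the largest fall in each comparison at a mean of at least 5 CPM, those listed by role or as paralogues, and the 3 highest and 3 lowest in level. From each context list the 2 genes with the largest called rise and fall may be named. Some genes that these rules name are not reported here. Correlations of the deviations of libraries with the same letter ranged from −0.096 to 0.161 between groups, so the letters were not taken to pair libraries. Alternatives were the filter, pseudocount, scaling, samples in the fit, a replicate block, the length trend and leaving out each library. A count test was not run, since CPM were not turned into whole reads for all genes.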

Additional observations from a re-analysis of the deposited data

Results flagged for a closer look

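The hypoxia effect on single members differed between mutants by the limma test of the difference itself (Benjamini-Hochberg adjusted p under 0.05). For TIN minus GLAD the test called 23 of 82 members, where 33.9% of all tested genes were called, with log2 differences of 0.83 for Rps27l, 0.60 for Rpl38 and 0.59 for Rpl36. For the double mutant minus GLAD it called 3 members (14.5% of all tested genes), Rps27l at 0.54, Rpl36 at 0.52 and Rpl22 at 0.42. For the double mutant minus TIN it called 6 members (42.8% of all tested genes), among them Rpl7a at 0.37, Rpl4 at 0.32, Rpl41 at −0.60, Rpl38 at −0.49 and Rps24 at −0.42. For TIN minus GLAD 3 members were called without TIN normoxia library A, and the direction turned with the coding-length and GC trend removed, with 1 higher and 5 lower. Double minus TIN turned from 2 higher and 4 lower to 31 higher and 1 lower with that trend removed. With 2 libraries per group no group was large enough to look for a single library apart from the rest.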

How the results depend on the processing

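Counts of called members moved by less than 1.5 times under a pseudocount of 2 CPM and the 3 other scalings. Over the 12 counts and all alternatives, 113 values stayed within 1.5 times and 67 moved. For single members and medians 1947 values kept their side of the threshold or stayed within the replicate spread, 186 lost the threshold, 89 gained it, 13 medians moved and 5 values of single members reversed. Medians changed sign with the coding-length trend removed in GLAD hypoxia (0.08), TIN minus GLAD (−0.02) and double minus TIN (0.19), with the transcript-length trend removed in double minus TIN (0.06), and without wild-type library A in TIN against wild type (−0.03). With no filter on low values the count was 20 in TIN against wild type, 16 in the double mutant against GLAD, 32 against TIN, 2, 18 and 10 for hypoxia in GLAD, TIN and the double mutant, and 3, 0 (limma, 5 at an unadjusted p under 0.05) and 2 for TIN minus GLAD, double minus GLAD and double minus TIN. This alternative adjusts over more genes. With only the groups compared in the fit it was 14 in TIN against wild type, 20 in the double mutant against wild type, 50 against GLAD, 19 for hypoxia in GLAD, and 60, 5 and 10 for the 3 differences of hypoxia effects.

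With the length and GC trend removed it was 13, 24 and 37 for hypoxia in GLAD, TIN and the double mutant, 9 for double minus GLAD and 16 for double minus TIN. With coding length, chosen after seeing the data, it was 18 (14 higher and 4 lower, against 0 and 5) for hypoxia in GLAD. For hypoxia in TIN it was 26 (16 and 10, against 43 and 1) and in the double mutant 60 (57 and 3, against 16 and 3). It was 6 (1 and 5, against 23 and 0), 6 and 32 (31 and 1, against 2 and 4) for the differences, and 48 for the double mutant against GLAD. Reversed in TIN hypoxia were Rps2 at −0.14 with transcript length and −0.17 with coding length, and with coding length Rplp1 at −0.083, Rpl36 at −0.056 and Rpl41 at −0.030. A replicate block alone changed no count by over 1.5 times, with 50 called for hypoxia in TIN. The replicate block with the length trend removed gave 15, 24 and 42 for hypoxia, 10 for double minus GLAD, 20 for double minus TIN and 42 for the double mutant against GLAD. The cause of these moves was not tested.

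Leaving out 1 library at a time gave 2 to 4, 9 to 44 and 6 to 27 for hypoxia in GLAD, TIN and the double mutant. It gave 39 to 78, 24 to 48 and 16 to 64 for GLAD, TIN and the double mutant against wild type. It gave 52 to 72 for TIN against GLAD, 10 to 21 and 18 to 52 for the double mutant against GLAD and TIN, and 3 to 28, 0 to 3 and 1 to 18 for the differences. A lone library was assumed to vary like the other groups. The edgeR alternative was not run. Depth is an estimate from low CPM values, and the CPM were not turned into whole reads for all genes. With 2 libraries per group, small differences may have been missed, and no limit of detection is given.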
